A study of Mus musculus with 8 samples.

Results

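The cytochrome P450 genes of the mouse were followed in small intestinal crypts, the glands between the villi where the stem cells of the epithelium sit. Protein-coding genes were taken by name alone, as Cyp followed by a family number, a subfamily letter or letters and a gene number. Cyp51 and names that end in a letter, such as Cyp3a41a, are left out, so family counts and shares are without them. This gave 94 genes of 55880 in the table, spread over 15 chromosomes and 16 families. The naming rule used no measured value.

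RNA was sequenced from 4 libraries labelled miR-29ab1-/- and 4 libraries labelled wild type (WT), all from C57BL/6N mice and taken before irradiation. The genotype is named for the cluster that encodes miR-29a and miR-29b-1, and the question of the series is whether miR-29ab acts on intestinal stem cells through energy metabolism. The labels give no sex, age, litter, batch or extent of the deletion, and do not say whether each library is 1 animal, so p-values measure the spread between these libraries, which may be technical. Below, KO stands for the libraries labelled miR-29ab1-/-, and values per library run from replicate 1 to replicate 4.

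Cytochromes P450 are heme enzymes that place an oxygen atom on fat-soluble molecules, with electrons from P450 reductase or, in mitochondria, from ferredoxin. Families 1 to 4 mostly handle drugs, food chemicals, fatty acids and eicosanoids, while the higher-numbered families make or break down steroids, bile acids, vitamin D and retinoic acid. In the small intestine, enterocytes of the villus are known to carry much of this activity, as the first site where swallowed compounds are oxidised.

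The targeted locus was examined first. The Mir29b-1 hairpin had 2, 5, 7 and 3 counts in the KO libraries and 0 in each WT library, and Mir29a had 0 in all 8. Counts of a deleted hairpin in the KO libraries go against the labels at face value, so the group is called by its label. These libraries do not measure the mature microRNAs. Lncpint, a noncoding RNA whose gene lies beside the cluster, averaged 144 ± 24.7 CPM (counts scaled by library depth) in KO and 0.775 ± 0.109 CPM in WT (SD, n = 4 each), so the locus did separate the labelled groups. Depth was 13879472 to 17368666 counts per library, and a count of 0 allows at most 0.175 to 0.235 CPM, for 3 counts, which covers counting error only.

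Few of the genes held a site for the targeted microRNAs. A microRNA is guided by its seed, bases 2 to 8, here in capitals in the mature sequences from RefSeq, which show that both carry the same one.
mmu-miR-29a-3p: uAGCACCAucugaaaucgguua
mmu-miR-29b-3p: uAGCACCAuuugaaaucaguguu
The matching letters TGGTGCT were found in the annotated 3′ UTR of 6 of the 87 P450 genes with a UTR of at least 50 bases (6.90%), against 13.3% of 20674 genes searched. The UTRs of the P450 genes were shorter, with a median of 411 bases against 988 for all genes. Cyp4f39 was the only one of the 6 with enough counts to test. Its site (chr17:32492648-32492654, plus strand, GRCm38) is shown with its flanks, the seed match in capitals.
Cyp4f39: agaggagtatcttgtTGGTGCTgacttcg
Cyp4f39, the mouse counterpart of a human skin enzyme that hydroxylates very long fatty acids, had 0.882, 1.04, 1.18 and 1.33 CPM in KO and 0.551, 0.502, 0.351 and 1.08 CPM in WT. The groups overlapped through WT replicate 4, and KO over WT was 0.84 ± 0.39 on the log2 scale (fold change ± SE; adjusted p = 0.994 by edgeR's quasi-likelihood test). Only 1 WT library but 4 KO libraries of Cyp4f39 reached the 0.658 CPM needed for testing, so it was tested mainly through the group where it is higher. The other 5 site holders (Cyp2c38, Cyp26b1, Cyp3a16, Cyp21a1 and Cyp2a12) had 1 to 46 counts over all 8 libraries.

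A promoter element often linked to intestinal and liver genes was more frequent among the P450 genes. The letters CAAAGTCCA, an element read by the nuclear receptor HNF4, were searched on either strand within the 250 bases before the start. They were present in 9 of 73 P450 genes with a RefSeq promoter (12.3%), against 0.451% of 27025 genes with one. A gene with several promoters was counted once, as a holder if any of them had the letters. TATAAA was held by 37.0% of these P450 genes and 14.3% of all genes searched. GCGTG, the core read by the aryl hydrocarbon receptor, was held by 20.5% and 30.9%, and TTTATGG, read by CDX2, by 2.74% and 2.83%. No one of these 4 motifs contains another. The neighbouring Cyp2c65 and Cyp2c66 are shown because their levels are set side by side further on, and Cyp3a11 as a holder of the element outside family 2. Capitals mark CAAAGTCCA and TATAAA (RefSeq, GRCm38.p6).
Cyp2c65 (chr19:39060756-39061005, plus strand): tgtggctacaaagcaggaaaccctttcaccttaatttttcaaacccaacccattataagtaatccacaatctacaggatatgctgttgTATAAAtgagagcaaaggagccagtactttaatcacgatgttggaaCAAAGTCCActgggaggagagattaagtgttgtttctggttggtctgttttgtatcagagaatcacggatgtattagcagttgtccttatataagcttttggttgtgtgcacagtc
Cyp2c66 (chr19:39113648-39113897, plus strand): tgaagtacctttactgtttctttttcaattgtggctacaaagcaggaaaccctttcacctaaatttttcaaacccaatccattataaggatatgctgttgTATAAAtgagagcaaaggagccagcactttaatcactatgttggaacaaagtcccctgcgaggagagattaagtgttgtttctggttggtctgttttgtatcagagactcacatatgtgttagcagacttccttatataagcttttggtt
Cyp3a11 (chr5:145879855-145880104, minus strand): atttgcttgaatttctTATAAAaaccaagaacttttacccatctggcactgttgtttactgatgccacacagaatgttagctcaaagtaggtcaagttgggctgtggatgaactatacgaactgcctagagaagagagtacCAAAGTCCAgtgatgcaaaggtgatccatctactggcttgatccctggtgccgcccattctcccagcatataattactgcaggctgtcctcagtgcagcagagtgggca
Cyp2c66 differs from the element by A9C, counted from 1 at the element's 5′ end, so the exact letters are not in its window. A match in letters was counted as such and not as a bound site. The tested holders of CAAAGTCCA were Cyp2c65, Cyp2c67, Cyp2c68 and Cyp3a11, and the Cyp2c genes among them lie in 1 stretch of chromosome 19. Neighbouring gene copies can share promoter letters by descent, so the holders are not independent of each other.

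Crypt RNA held a narrow set of P450 genes. Of the 94, 74 had a count in at least 1 library, 37 had enough counts to test, and 20 had none anywhere. On the FPKM scale, which divides by gene length and allows genes to be compared, Cyp4f14 alone made up 30.3% of the summed level of the 94 genes, the first 4 genes 59.5% and the first 12 genes 88.7%. Family 4, the omega-hydroxylases of fatty acids and eicosanoids, held 51.9%, family 2 held 26.6%, family 3 held 17.5% and family 27 held 3.22%. A mean of at least 10 FPKM was reached by 17 genes and of at least 100 FPKM by 4, which were Cyp4f14 (421 FPKM), Cyp3a13 (137 FPKM), Cyp4v3 (136 FPKM) and Cyp2d26 (132 FPKM). Cyp3a13, Cyp4v3 and Cyp2d26 differ from each other by far less than the spread between libraries, so their order is not set.

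**Figure D1:**
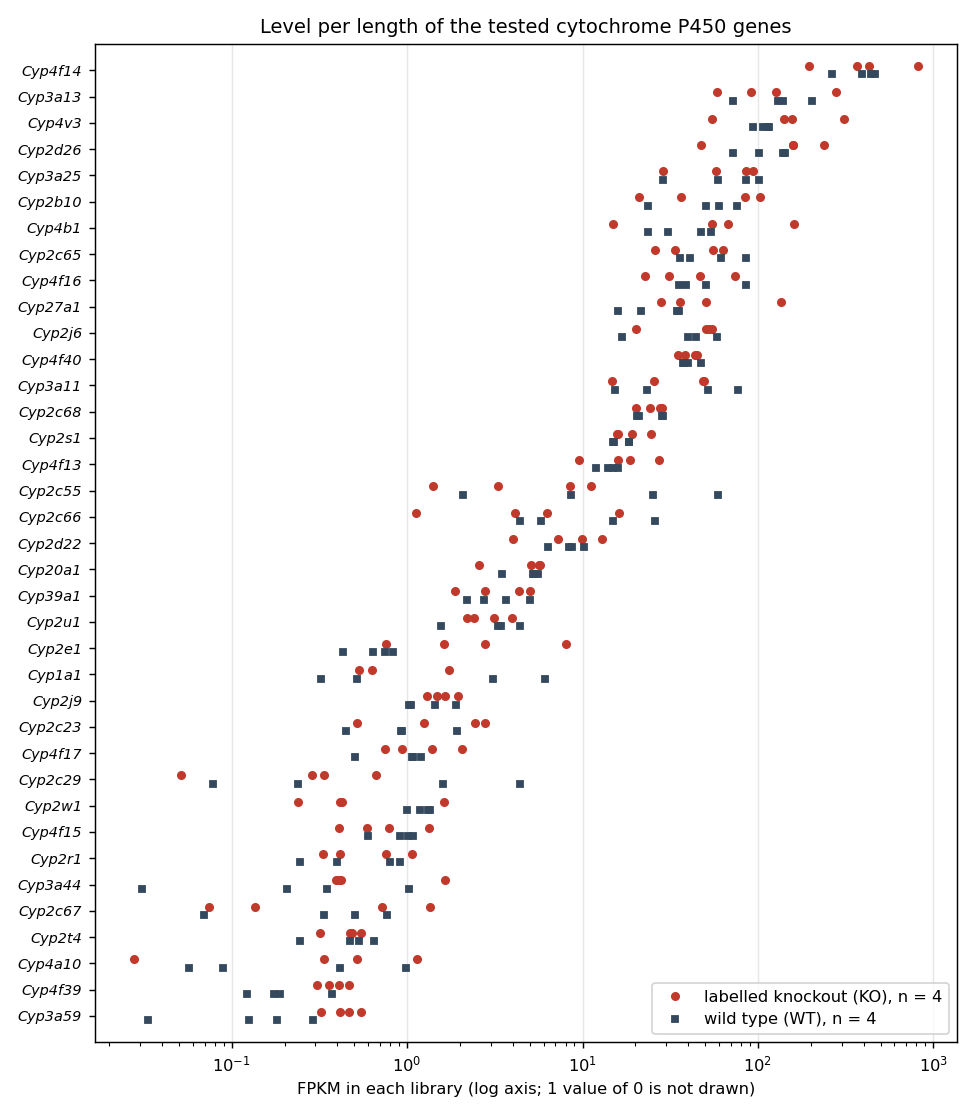
FPKM (log axis) of the 37 tested P450 genes in each KO library (red circles) and each WT library (dark squares), ordered by mean level. The groups overlap in all but Cyp3a59 at the bottom, and Cyp4f14 leads the order with a mean of 421 FPKM.

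None of the 37 tested genes passed the test between the groups. The edgeR quasi-likelihood test gave adjusted p-values of 0.994 to 0.998 for them and called 3 of all 14897 genes tested (0.0201%), each higher in KO. At an unadjusted p under 0.05 there were 3 P450 genes, Cyp2e1, Cyp3a59 and Cyp27a1, each higher in KO, which is 8.11% of those tested. Among all genes 2.7% were past that p, 1.87% higher in KO and 0.832% lower in KO. Cyp3a59 entered the test through its KO libraries alone, since none of its WT libraries reached the filter of 0.658 CPM, so it had to lie higher in KO; the other 2 are 5.56% of the 36 remaining genes. DESeq2 also called none of the 47 P450 genes for which it gave an adjusted p, and its smallest was 0.0882, while it called 0.109% of all genes. The authors' deposited table gives 0.0885 as the smallest adjusted p of a P450 gene, for Cyp2e1, and calls 0.0787% of all genes with one.

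The log2 fold change lay above 0 in 23 of the 37 (62.2%) and below 0 in 14, with a median of 0.13. Of all genes tested 52.0% lay above 0, with a median of 0.011. That share stands beside every count of genes above or below 0 given here. Genes of 1 family or list can move together, so such counts are a description and no test. A difference of more than 2-fold either way was fitted for 6 genes (16.2%), against 2.24% of all genes. Those were Cyp2e1, Cyp3a59 and Cyp27a1, higher in KO, and Cyp2c29, Cyp2c55 and Cyp1a1, lower in KO. Cyp3a59 is counted here and among the 23 although it had to lie higher in KO to be tested. Cyp4f39, above 0, and Cyp2w1, below 0, were tested mainly through the group where each is higher. The spread within groups was wide: the median SE of the log2 fold change was 0.42 for the P450 genes and 0.21 for all genes, and only 10 of the 37 had a 95% interval that stayed inside a 2-fold change. For the others the interval reached past a 2-fold change in at least 1 direction.

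**Figure D2:**
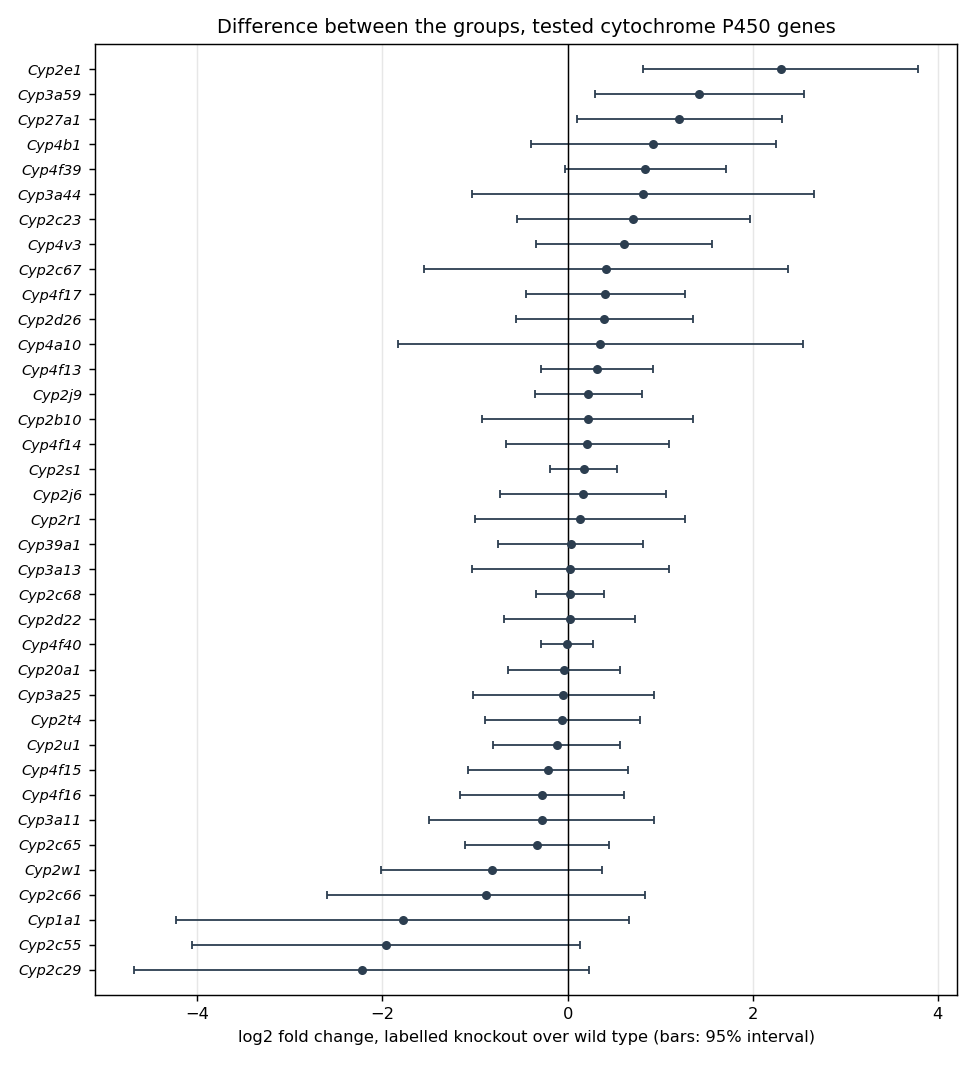
Log2 fold change of KO over WT for the 37 tested P450 genes, with 95% intervals from the edgeR fit as bars and a line at 0. The intervals of Cyp2e1, Cyp3a59 and Cyp27a1 at the top lie above 0, and those of Cyp2c29, Cyp2c55 and Cyp1a1 at the bottom are among the widest and reach past 0.

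Family 1 holds the classical enzymes induced through the aryl hydrocarbon receptor, which senses dietary and microbial aromatic compounds. Cyp1a1, its main intestinal member, had 4.85, 1.5, 1.77 and 0 CPM in KO and 0.919, 17, 1.46 and 8.68 CPM in WT. WT replicates 2 and 4 stood above all others and the remaining WT libraries lay among the KO ones. Its log2 fold change was -1.78 ± 1.08 (SE; edgeR quasi-likelihood test, adjusted p = 0.994), and -0.85 without WT replicate 2. Cyp1a2 had 2 counts and Cyp1b1 had 5 over all libraries. Among 8 tested targets of the same receptor outside the P450 genes, 3 lay above 0 on the log2 scale and 5 below, with none called and a median of -0.22. Nqo1, a quinone reductase, averaged 19.02 ± 3.49 CPM in KO and 24.1 ± 6.47 CPM in WT. Ahrr, the repressor of the receptor, averaged 0.638 ± 0.322 CPM in KO and 1.13 ± 0.496 CPM in WT.

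In family 2, the largest with 49 genes, 18 were tested, 16 had at most 55 counts each in all libraries together, and 15 had none. The fold changes of the tested genes ran from -2.22 to 2.30 on the log2 scale, 11 above 0 and 7 below, with none called. The leading drug-metabolising members were Cyp2d26 and Cyp2b10. Cyp2d26, of the subfamily that includes human CYP2D6, had 285, 289, 85.0 and 428 CPM in KO and 132, 182, 259.7 and 251 CPM in WT. Cyp2b10, the classical target of the receptor CAR, had 181, 77.6, 44.4 and 218 CPM in KO and 50.5, 107, 162 and 128 CPM in WT. In both, KO replicate 4 was highest and KO replicate 3 lowest, and the WT values lay between. The log2 fold changes were 0.40 ± 0.42 and 0.22 ± 0.50 (SE), both with an adjusted p of 0.994 in the edgeR quasi-likelihood test. In RNA of whole crypts, fewer cells of a type and less RNA per cell cannot be told apart, for these and for all genes below.

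Cyp2e1, known for oxidising ethanol and ketones, had the largest difference upward. Cyp2e1 (ENSMUSG00000025479, chromosome 7, 140763739 to 140774987, plus strand) had 17.6, 6.05, 3.54 and 1.64 CPM in KO and 1.84, 1.38, 1.64 and 0.942 CPM in WT. KO replicates 1 to 3 were above every WT library, whereas KO replicate 4 lay among them, so the groups overlapped. The fold of KO over WT was 4.93 (95% interval 1.76 to 13.8; edgeR quasi-likelihood test, unadjusted p = 0.00665, adjusted p = 0.994). Without KO replicate 1 the log2 fold change was 1.37, in place of 2.30. The nearest other Cyp gene in sequence, Cyp2c39, shares 65.3% of the aligned coding sequence and had no count.

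Markers of 2 other organs were read beside Cyp2e1, which is best known from liver. Cblif, the gastric intrinsic factor, was called higher in KO, with 24.5, 10.8, 7.66 and 11.4 CPM in KO and 0.919, 0.376, 0.175 and 0.740 CPM in WT (edgeR quasi-likelihood test, adjusted p = 0.0496). That call lay just under the limit of 0.05 and depended on the set of genes tested. With protein-coding genes alone, edgeR called 0 genes. KO replicate 1 was highest for both Cblif and Cyp2e1. The match did not hold in KO replicate 4, where Cblif was second highest at 11.4 CPM and Cyp2e1 lowest of KO at 1.64 CPM. The list of 8 gastric markers summed to 9.72 to 27.4 CPM in KO and 1.99 to 3.31 CPM in WT, nearly all of it Cblif: the other 7 summed to 1.02 to 2.87 CPM in KO and 1.81 to 2.39 CPM in WT, with overlap, and Tff1, Gkn1 and Gkn2 were at 0. The list of 8 liver markers summed to 545 to 1548 CPM in KO and 1088 to 1720.0 CPM in WT, nearly all of it Cps1, an enzyme of the urea cycle that intestinal epithelium also makes. The other 7 liver markers summed to 12.1, 7.48, 7.66 and 5.25 CPM in KO and 4.23, 3.89, 3.80 and 4.51 CPM in WT, without overlap and mostly from Ttr and Apoh. Of 3 liver markers tested 2 were above 0 and none was called, 1 of them, Ttr, at an unadjusted p under 0.05 (edgeR quasi-likelihood test, adjusted p = 0.994). Alb stayed at or under 0.413 CPM in every library, and Fgb was at 0. Whether cells of liver or stomach were present, and any part of theirs in the Cyp2e1 difference, was not tested.

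The Cyp2c genes, which epoxidise or hydroxylate arachidonic acid and also handle drugs, scattered widely between libraries. Of 15, 7 were tested, and 6 of these lie with other P450 genes in a stretch of chromosome 19 from 39007019 to 40187333. Cyp2c55 (ENSMUSG00000025002), known in mouse for making a hydroxylated arachidonic acid product, had 22.6, 17.1, 6.66 and 2.82 CPM in KO and 17.6, 50.5, 119 and 4.17 CPM in WT. Cyp2c66 had 31.7, 12.4, 8.07 and 2.19 CPM in KO and 8.70, 29, 51.1 and 11.4 CPM in WT. Cyp2c29 had 2.06, 1.04, 0.884 and 0.157 CPM in KO and 0.245, 4.89, 13.6 and 0.740 CPM in WT. These 3 genes were singled out after their values were seen, because each was highest in WT replicate 3 and lowest in KO replicate 4, with WT replicate 2 among the higher libraries in each. The groups overlapped in all 3.

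Their log2 fold changes were -1.96 ± 0.93 for Cyp2c55, -0.88 ± 0.76 for Cyp2c66 and -2.22 ± 1.09 for Cyp2c29 (SE), each with an adjusted p of 0.994 in the edgeR quasi-likelihood test. Without WT replicate 3 they were -0.97, -0.27 and -0.92, so that library carried much of each difference. Cyp2c65, the next gene and the most abundant of the subfamily, was steadier, with 123, 109, 50.4 and 65.4 CPM in KO and 80.2, 119.9, 166 and 69.8 CPM in WT. Its WT replicate 3 was again the highest, but its lowest library was KO replicate 3, and the log2 fold change was -0.33 ± 0.35 (SE). Cyp2c65 and Cyp2c66 share 96.3% of their coding sequence, so the division of reads between them rests on the authors' counting. Cyp2c68, also of this stretch, had the narrow log2 interval of -0.34 to 0.39 around 0.03.

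**Figure D3:**
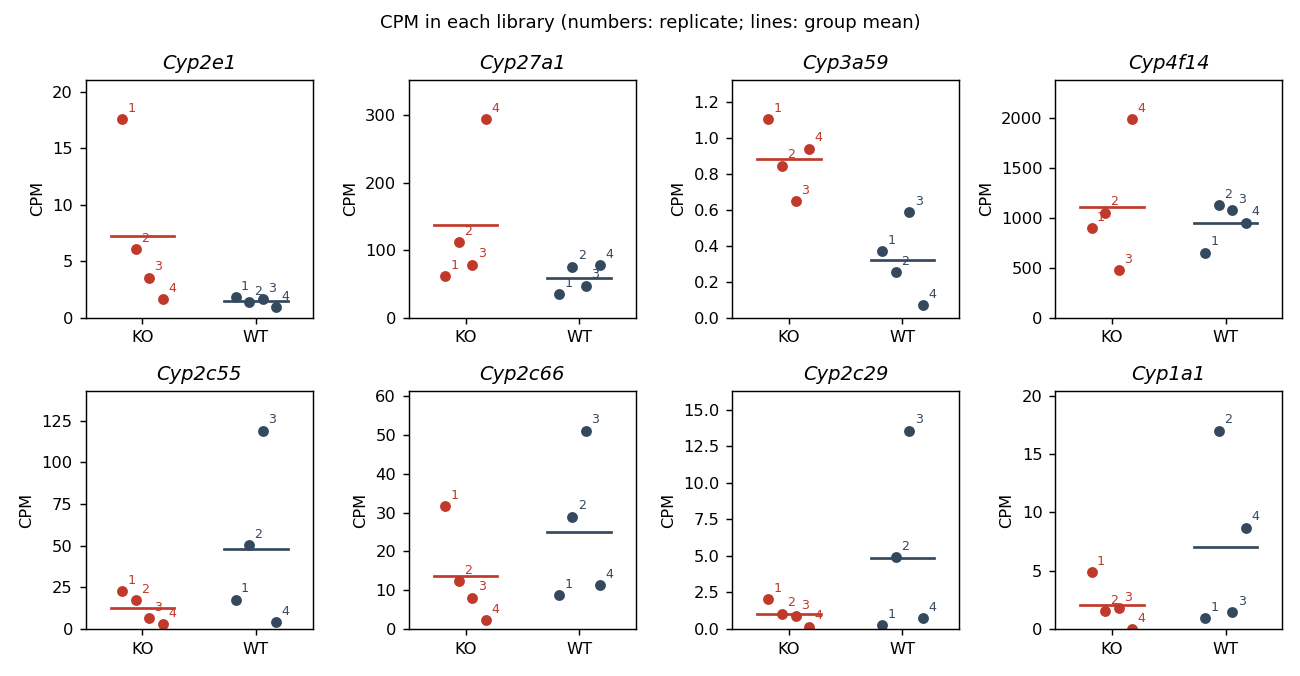
CPM of 8 P450 genes in each KO library (red, left) and each WT library (dark, right), with replicate numbers beside the points and group means as lines. Cyp2e1 is highest in KO replicate 1 and Cyp27a1 in KO replicate 4, while Cyp2c55, Cyp2c66 and Cyp2c29 are highest in WT replicate 3 and Cyp1a1 in WT replicate 2.

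The remaining family 2 genes had small fitted differences or were scarce. Cyp2j6, of a subfamily known for epoxidising polyunsaturated fatty acids, had 192, 185, 73.3 and 197 CPM in KO and 61.3, 144, 212 and 160.5 CPM in WT. KO replicate 3 stood apart below the other KO libraries and close to WT replicate 1. Its log2 fold change was 0.16 ± 0.40 (SE), with an interval of -0.73 to 1.06 that reaches past a 2-fold change. Cyp2s1, an epithelial member, had a log2 interval of -0.19 to 0.54, among the narrowest. Cyp2w1 had 0.367, 0.650, 2.48 and 0.626 CPM in KO and 1.84, 2.07, 1.52 and 2.02 CPM in WT. Its KO replicates 1, 2 and 4 lay below every WT library and KO replicate 3 above all of them, so the groups overlapped, and it was noticed after its values were seen. Cyp2w1 reached the filter of 0.658 CPM in 4 WT libraries and 1 KO library, so it was tested mainly through the group where it is higher.

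Family 3, which clears a broad range of drugs, steroids and bile acids, was tested in 5 of 7 genes, 3 above 0 and 2 below. Cyp3a13, the leading member, had 175, 379, 272 and 827 CPM in KO and 217, 600.4, 389 and 412 CPM in WT. Cyp3a25 had 180.1, 122, 59.99 and 195 CPM in KO and 61.1, 179.6, 212 and 124 CPM in WT. The groups overlapped over most of their range in both genes. The log2 fold changes were 0.03 ± 0.47 for Cyp3a13 and -0.05 ± 0.43 for Cyp3a25 (SE), with intervals of -1.03 to 1.10 and -1.03 to 0.93, and the sign of Cyp3a13 turned to -0.11 with limma-voom. Cyp3a11, a classical target of the receptor PXR, averaged 34.5 ± 17.3 FPKM in KO and 41.8 ± 28.2 FPKM in WT.

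Cyp3a59 was the only P450 gene whose groups did not overlap, 1 of 37 tested (2.70%). Among all genes 1.53% did not overlap, 0.913% higher in KO and 0.618% lower in KO. It had 1.10, 0.846, 0.648 and 0.940 CPM in KO and 0.368, 0.251, 0.585 and 0.0673 CPM in WT. Every KO library was above every WT library. The filter of 0.658 CPM uses library totals before scaling, so KO replicate 3 passed it although its scaled value was 0.648 CPM. Since the gene was tested only because its KO libraries passed the filter, which no WT library did, the missing overlap is a description and no support for a difference. The fold of KO over WT was 2.68 (95% interval 1.23 to 5.86; edgeR quasi-likelihood test, unadjusted p = 0.0186, adjusted p = 0.994). The coding sequence of Cyp3a59 is 97.5% identical to that of Cyp3a25, which had 17169 counts in all libraries against 72 for Cyp3a59, so its counts are uncertain. Cyp3a25 itself differed by less than its spread.

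Family 4 supplied the bulk of P450 RNA, and 10 of its 17 genes were tested, 7 above 0 and 3 below, with none called. Of the other 7, 5 had at most 85 counts each and 2 had none. Cyp4f14 (ENSMUSG00000024292, chromosome 17, 32905070 to 32917342, minus strand), known in mouse for inactivating leukotriene B and breaking down vitamin E, had 897, 1051, 479 and 1986 CPM in KO and 650.3, 1125, 1077 and 952 CPM in WT. KO replicate 4 was highest and KO replicate 3 lowest, so that the KO group spanned the whole WT range. It averaged 453 ± 264 FPKM in KO and 389.7 ± 89.2 FPKM in WT (SD, n = 4 each), with a log2 fold change of 0.21 ± 0.39 (SE; edgeR quasi-likelihood test, adjusted p = 0.994) that was -0.23 without KO replicate 4.

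Cyp4v3, the counterpart of a human fatty acid hydroxylase mutated in a crystalline retinal disease, had 598, 546, 209 and 1179.8 CPM in KO and 363, 438, 448 and 408 CPM in WT. Cyp4b1, which hydroxylates shorter fatty acids, had 125, 154, 33.8 and 362 CPM in KO and 54.6, 108, 123 and 69.6 CPM in WT. In both, 3 of the 4 KO libraries were above every WT library and KO replicate 3 was below all. The log2 fold changes were 0.61 ± 0.42 and 0.93 ± 0.59 (SE), both with an adjusted p of 0.994 in the edgeR quasi-likelihood test, and were 0.12 and 0.23 without KO replicate 4.

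Cyp4f16 and Cyp4f40 lie in the same stretch of chromosome 17 as Cyp4f14, which holds 8 P450 genes between 32452723 and 32947402. Cyp4f16 had 96.3, 146, 70.1 and 228 CPM in KO and 110.3, 157, 266 and 119.7 CPM in WT. Cyp4f40 had 87.6, 110.3, 96.6 and 111 CPM in KO and 94.6, 99.3, 94.9 and 119 CPM in WT. Cyp4f40 was the steadiest of the abundant P450 genes, with a log2 fold change of -0.01 and an interval of -0.29 to 0.28, while Cyp4f16 was at -0.27 ± 0.39 (SE). Neighbours on the chromosome thus had unlike spreads, and of the 7 tested genes of this stretch 4 were above 0 and 3 below.

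The Cyp4a genes taken by the naming rule, classical targets of the fatty acid receptor PPAR alpha, were nearly silent. Cyp4a14 had no count in any library, 3 further Cyp4a genes had at most 54 counts each, and Cyp4a10 had 2.43, 1.11, 0.0589 and 0.705 CPM in KO and 0.123, 0.188, 2.11 and 0.874 CPM in WT. The highest values of the 2 groups were alike, and the log2 fold change of Cyp4a10 was 0.35 ± 0.97 (SE). Its nearest relative, Cyp4a32, shares 97.2% of its coding sequence. Among 25 tested PPAR alpha targets outside the P450 genes, 15 were above 0 and 10 below, with none called and a median of 0.17. Pdk4, which restrains glucose oxidation, had 81.1, 35.3, 22.8 and 229.6 CPM in KO and 15.4, 11.6, 7.78 and 9.35 CPM in WT without overlap (edgeR quasi-likelihood test, adjusted p = 0.994). Me1, a source of NADPH for fat synthesis, averaged 14.7 ± 4.53 CPM in KO and 54.2 ± 34.6 CPM in WT. Of 15 tested enzymes that handle arachidonic acid outside the P450 genes 6 were above 0 and 9 below, with none called and a median of -0.20, Hpgd and Ptges3 having the smallest p-values.

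Among the sterol enzymes, Cyp27a1, the mitochondrial hydroxylase of the cholesterol side chain in bile acid synthesis, was the main one present. Cyp27a1 (ENSMUSG00000026170, chromosome 1, 74713574 to 74737892, plus strand) had 61.8, 112, 78.4 and 294 CPM in KO and 35.1, 75.6, 47.5 and 78.2 CPM in WT. KO replicates 2, 3 and 4 were above every WT library, by little for replicate 3, and KO replicate 1 lay within the WT range. It averaged 62.4 ± 49.3 FPKM in KO and 27 ± 9.79 FPKM in WT (SD, n = 4 each), a fold of 2.31 (95% interval 1.07 to 4.97; edgeR quasi-likelihood test, unadjusted p = 0.0359, adjusted p = 0.994). Without KO replicate 4 the log2 fold change was 0.51, in place of 1.21.

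Other hydroxylases of bile acid synthesis were close to absent: Cyp7a1, the rate-limiting one, had no count, Cyp7b1 had 1, in KO replicate 3, and Cyp8b1 had 3, all in KO replicate 4. Cyp39a1, which acts on oxysterols, had 13.3, 8.65, 15.4 and 5.72 CPM in KO and 15.6, 8.40, 6.78 and 11.3 CPM in WT. The values of both groups covered nearly the same range, with a log2 fold change of 0.04 ± 0.35 (SE). Cyp46a1, the cholesterol hydroxylase of brain, had 9 counts. Of 16 tested genes that handle bile acids or oxysterols outside the P450 genes, 13 were above 0 and 3 below, with none called and a median of 0.25. Abcg8, of the sterol efflux pump, averaged 274 ± 89.7 CPM in KO and 182 ± 23.5 CPM in WT, and Baat, which conjugates bile acids, averaged 3.66 ± 2.53 CPM in KO and 1.79 ± 0.857 CPM in WT. In cholesterol synthesis 2 of 20 genes were above 0 and 18 below, with none called and a median of -0.25. Among all genes tested 52.0% were above 0, and genes of 1 pathway can move together. Cyp51, the P450 enzyme of that pathway, averaged 62.8 ± 6.86 CPM in KO and 83.0 ± 19.4 CPM in WT (edgeR quasi-likelihood test, adjusted p = 0.994).

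The enzymes of steroid hormones, vitamin D and retinoic acid were rare. Cyp17a1 had 85 counts in all libraries, the most of any untested P450 gene together with Cyp4f18, and Cyp11a1, which starts steroid synthesis, had 33. Cyp11b1, Cyp11b2 and Cyp21a1 had 4, 1 and 1, and aromatase, Cyp19a1, had none. Cyp2r1, which takes vitamin D through its liver step, had 2.28, 1.63, 0.884 and 0.705 CPM in KO and 0.858, 1.69, 0.526 and 1.95 CPM in WT, with overlapping groups and a log2 fold change of 0.13 ± 0.51 (SE). Cyp27b1, which completes the activation, had 43 counts, and Cyp24a1, the catabolic enzyme and a sensitive target of the vitamin D receptor, had none, while Vdr itself ran from 373.7 to 513 CPM in KO and from 363 to 493 CPM in WT. The retinoic acid hydroxylases Cyp26a1, Cyp26b1 and Cyp26c1 had 3, 46 and 5 counts.

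Partners of these pathways were not called either. Of 14 tested steroid enzymes outside the P450 genes 11 were above 0, of 19 retinoid genes 14, and of 6 vitamin D and calcium genes 3, with medians of 0.19, 0.20 and -0.02. The smallest p-values were those of Star and Srd5a3, of Lrat and Bco1, and of S100g and Dhcr7. Bco1, which cleaves carotene to retinal, averaged 3.17 ± 1.75 CPM in KO and 10.01 ± 8.97 CPM in WT, with WT replicates 2 and 4 at 18.9 and 16.5 CPM. Those are the libraries in which Cyp1a1 was highest. Within KO the match did not hold, since Bco1 was highest in replicate 4 at 5.64 CPM, where Cyp1a1 had 0 CPM.

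The orphan enzyme Cyp20a1, whose substrate is not known, had 11.8, 13.2, 13.1 and 5.87 CPM in KO and 12.4, 12.9, 8.01 and 12 CPM in WT. KO replicate 4 was lowest, in contrast with Cyp4f14, Cyp4v3 and Cyp27a1, for which it was highest. Its log2 fold change was -0.04 with an interval of -0.64 to 0.56.

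Genes with no count in any library were Cyp2a4, Cyp2a22, Cyp2b9, Cyp2b13, Cyp2b19, Cyp2b23, Cyp2c37, Cyp2c39, Cyp2c50, Cyp2c54, Cyp2c69, Cyp2d11, Cyp2g1, Cyp2j7, Cyp2j12, Cyp4a14, Cyp4x1, Cyp7a1, Cyp19a1 and Cyp24a1. Several of them are known from liver, and Cyp2g1 from the olfactory lining. Cyp2b10 was thus the only one of 5 Cyp2b genes detected.

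The machinery that P450 enzymes share was also measured. Of 15 tested genes for electron donors and heme, 7 were above 0 and 8 below, with none called and a median of -0.09. P450 reductase, Por, had 126, 129, 84.9 and 361 CPM in KO and 86.6, 142, 217 and 165 CPM in WT. As in Cyp4f14, KO replicate 4 was highest and KO replicate 3 lowest, and its log2 fold change was 0.20 ± 0.45 (SE). Blvra, which reduces a product of heme breakdown, averaged 16.8 ± 0.916 CPM in KO and 19.5 ± 0.702 CPM in WT without overlap, and Alad, of heme synthesis, averaged 48.3 ± 5.43 CPM in KO and 54.5 ± 4.33 CPM in WT (SD, n = 4 each).

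Of 22 tested receptors that regulate P450 genes 16 were above 0 and 6 below, with none called and a median of 0.11, Ppara averaging 33.6 ± 6.45 CPM in KO and 29.5 ± 0.861 CPM in WT. Of 49 tested conjugation enzymes and efflux pumps 25 were above 0 and 24 below, with none called and a median of 0.04. Abcc3, an efflux pump for conjugates, averaged 70.1 ± 11.7 CPM in KO and 97.5 ± 20.01 CPM in WT, and Gsta2, a glutathione transferase, averaged 1.10 ± 0.293 CPM in KO and 1.74 ± 0.954 CPM in WT.

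The summed P450 level spread further within the KO group than the group means lay apart. The 94 genes summed to 3665, 3753, 1881 and 6748 CPM in KO and 2282, 3996, 4326 and 3333 CPM in WT. KO replicate 4 was highest and KO replicate 3 lowest, so the KO group enclosed the WT group. The means were 4012 ± 2018 CPM in KO and 3484 ± 902 CPM in WT (SD, n = 4 each). Without Cyp4f14 the sums were 2768, 2702, 1401 and 4762 CPM in KO and 1631, 2871, 3248 and 2382 CPM in WT, in the same order at both ends. KO replicate 4 was the highest library for 12 of the 37 tested genes and the lowest for 7, against 26.9% and 29.1% of all genes. KO replicate 3 was the lowest for 13, against 15.6% of all genes, and WT replicate 3 the highest for 9, against 7.44% of all genes.

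Markers of villus enterocytes moved with these sums. The 18 markers, none of them at 0 over the libraries, summed to 31281, 38199, 15397 and 85198 CPM in KO and 19835, 37683, 36869 and 32640 CPM in WT. KO replicate 4 was again highest, and KO replicate 3 and WT replicate 1 were again the lowest libraries. Of the 18, 16 had a log2 fold change above 0, beside 52.0% of all genes tested, and none was called, with a median of 0.41. The 12 markers of crypt base stem cells ran the other way at these libraries, with 4225, 2966, 4051 and 1672 CPM in KO and 4561, 2812, 2667 and 3088 CPM in WT. The part of the share of villus cells in the P450 values was not tested.

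**Figure D4:**
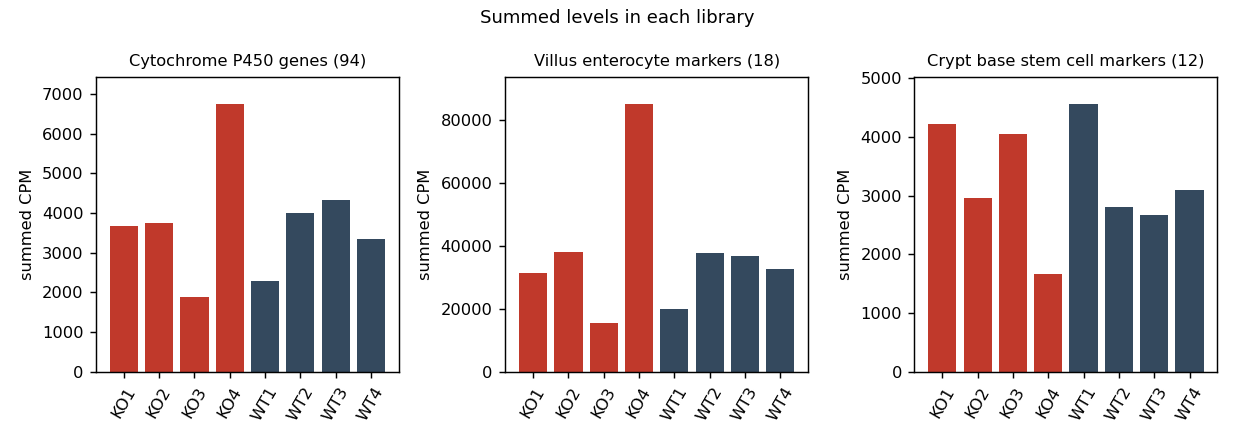
Summed CPM of the 94 P450 genes, of 18 villus enterocyte markers and of 12 crypt base stem cell markers in each KO library (red, left) and each WT library (dark, right); bars start at 0. KO replicate 4 has the tallest bar for P450 genes (6748 CPM) and enterocyte markers (85198 CPM) and the shortest for stem cell markers (1672 CPM).

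The P450 genes varied between libraries of a group more than the general run of genes and about as much as the enterocyte markers. The median coefficient of variation of the tested P450 genes was 0.516 in KO and 0.368 in WT, against 0.645 in KO and 0.295 in WT for the 18 enterocyte markers, and 0.228 in KO and 0.160 in WT for all genes tested. The SEs of the enterocyte markers ran from 0.37 to 0.73 on the log2 scale, 15 of them above the P450 median. Among genes of at least 10 CPM, which leaves 22 P450 genes, it was 0.471 in KO and 0.364 in WT, against 0.181 and 0.120 for all such genes. Cyp4f40, Cyp2c68 and Cyp2s1 were exceptions, with SEs of 0.13 to 0.16 on the log2 scale.

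Close copies limit some of these values. Of the 37 tested genes, 10 have another Cyp gene or pseudogene of at least 90% identity over at least 80% of the coding sequence, and 20 have one of at least 80%. Those past 90% are Cyp2c65, Cyp2c66, Cyp2c67, Cyp2c68, Cyp3a11, Cyp3a25, Cyp3a44, Cyp3a59, Cyp4a10 and Cyp4f16, and the division of reads within them and their copies is uncertain. For 11 tested genes no other Cyp sequence aligned over at least 80% of the coding sequence, which does not mean that they lack relatives. The highest identity was 98.1%, between Cyp2c68 and Cyp2c40, the second of which had 15 counts in all. Cyp3a13 shares 208 bases with the processed pseudogene Gm15502 on the same strand, which had 803 counts against 49256. Cyp2t4, with 94 counts, overlaps 11 bases of Egln2 on the opposite strand, which had 10163 counts, and no source used here says whether the counting used strand.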

How the data were processed

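Crypt RNA was isolated with TRIzol and sequenced from libraries that mark the strand, as the labels' protocols state. Per the submitters' processing notes HISAT2 and DESeq2 were used (no versions listed). The authors' read counter, annotation and genome build were not given in the sources used here. Per the file headers, the deposited table gives raw counts per gene and library, and FPKM, which the authors made from those counts, gene length and a scaling per library. It also holds group means, a signal computed by the authors that was not used. Its log2 fold changes and p-values, deposited by the authors, are quoted only in sentences that name that table. A second deposited table holds the same FPKM for the 670 genes whose deposited p-value is under 0.05, among them 3 P450 genes. The coordinates of all 94 genes equal those of GENCODE M21 (GRCm38).

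The robust quasi-likelihood test of edgeR 4.0.16 (R 4.3.3) was run on the counts of all 8 libraries, with TMM scaling, filterByExpr and Benjamini-Hochberg adjustment over 14897 genes at 0.05. The fit was checked on simulated counts. CPM use TMM library sizes, except in the filter, which uses library totals before scaling. The SE is the absolute log2 fold change over the square root of F, and 95% intervals use it with a t quantile. Floors and intervals cover counting error or library spread only. Alternatives were DESeq2 1.42.0, RLE factors, limma-voom (limma 3.58.1), other filters, protein-coding genes alone, a replicate block and leaving out each library. Coding sequences were compared with BLAST 2.17.0. Libraries differed beyond sampling noise.

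The P450 genes were fixed by the naming rule, while the gene lists were chosen with earlier results of these data known. Values per library were given for genes past a threshold, with an unadjusted p under 0.05 or without overlap, for the 12 of highest FPKM and for the first of each tested family, and of each pathway list for up to 2 genes of smallest p. Other genes named were chosen after their values were seen. The list genes Fdx1l and Sts and the marker names Troy and Gif were not matched.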

Additional observations from a re-analysis of the deposited data

Results flagged for a closer look

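In 7 of 102 groups of 4 libraries examined, 1 library stood apart, by a gap to its nearest neighbour, over the range of the group, above Dixon's critical value at 95%. Chance flags about 1 in 20 groups. Among P450 genes this was Cyp2j6 in KO, where replicate 3 was lowest at 73.3 CPM (gap over range 0.900).

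The others were summed levels of gene lists. In WT, electron donors and heme supply were lowest in replicate 1 at 1387 CPM (0.842), steroid enzymes outside the P450 genes were highest in replicate 3 at 968 CPM (0.946), and enteroendocrine markers were highest in replicate 1 at 588 CPM (0.893). In KO, T cell markers were highest in replicate 4 at 266 CPM (0.845), red blood cell markers were highest in replicate 4 at 55.1 CPM (0.883), and gastric markers were highest in replicate 1 at 27.4 CPM (0.833).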

How the results depend on the processing

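No P450 gene was called under any of 15 alternatives, 7 that keep all libraries and 8 that leave out 1. Across all genes, 3 were called, against 21 with DESeq2, 5 with no filter and 0 with protein-coding genes alone (edgeR, 316 of 12535 genes at an unadjusted p under 0.05). The cause was not tested. Leaving out a library gave 2 to 3 called genes and a median P450 log2 fold change between -0.04 and 0.28, in place of 0.13. The labels do not say whether equal replicate numbers mark pairs. Correlations of same-numbered deviations were 0.07, 0.03, -0.39 and -0.09, and those of other pairs ran from -0.19 to 0.32. With so few libraries these values cannot settle whether the libraries were paired. With the replicate block 2 genes and 0 P450 genes were called, with a median of 0.03. The sign turned for Cyp3a13 with limma-voom (-0.11) and the replicate block (-0.13), and for Cyp4f40 with RLE factors (0.00040).

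With a library left out, the sign turned for 9 P450 genes, in 21 of 160 values. Their log2 fold changes ran from -0.23 to 0.46 for Cyp4f14, -0.56 to 0.28 for Cyp3a13, -0.30 to 0.20 for Cyp3a25, -0.15 to 0.50 for Cyp2b10, -0.65 to 0.062 for Cyp4f16, -0.091 to 0.40 for Cyp2j6, -0.053 to 0.073 for Cyp4f40, -0.17 to 0.17 for Cyp20a1 and -0.19 to 0.29 for Cyp39a1. Depth limits the genes under the filter, 57 of 94, whose differences were not tested.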
